A study of Mus musculus with 11 samples.

Results

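The genes described here are 5 genes of zinc handling in mouse gastrocnemius, a mixed hindlimb muscle: the metallothioneins Mt1 and Mt2, the zinc sensor Mtf1, the zinc exporter Slc30a1 (ZnT1) and the zinc importer Slc39a14 (ZIP14). They were listed by symbol with earlier results of the same libraries known, and so count as chosen by their levels in the 3 genotypes; all 5 were found among the 55487 genes of the deposited tables. These levels are therefore given as a description, with no p-value for any of the 5. The libraries came from 4 wild-type, 3 Raptor-knockout and 4 Raptor mTOR double-knockout muscles. Every group is labelled as treated for tamoxifen-induced deletion, wild type included. The knockout mice carried floxed Raptor, and the double-knockout mice floxed mTOR as well, with Cre joined to a mutated estrogen receptor domain. The human skeletal actin (HSA) promoter that drives this Cre works in myofibres, so the other cells of the muscle keep both genes. Whether the wild-type mice carried Cre or floxed alleles is not given in the sources used here. Tamoxifen chow was begun at 3 months of age and given for 7 weeks, and the muscles were taken 7 months after its start. RNA was read by QuantSeq, a 3' tag method in which each transcript is counted by reads near its polyadenylated end, from 450 ng of total RNA per library.

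Metallothioneins are small, cysteine-rich proteins that bind zinc and copper and buffer the free zinc of the cell. Mtf1 encodes metal regulatory transcription factor 1 (MTF-1), which binds metal response elements in promoters when zinc is plentiful and switches on Mt1, Mt2 and Slc30a1; glucocorticoids and interleukin-6 signalling are also known inducers of the metallothioneins. Slc30a1 moves zinc out of the cell across the plasma membrane, and Slc39a14 brings zinc, and also iron and manganese, into it. Metallothionein transcripts are known to be high in atrophying skeletal muscle.

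Mt1 (ENSMUSG00000031765) and Mt2 (ENSMUSG00000031762) are neighbours on the plus strand of chromosome 8 in GRCm38, with 5513 bases between them: Mt2 at chr8:94172664-94173568 and Mt1 at chr8:94179082-94180327. Mtf1 (ENSMUSG00000028890) lies at chr4:124802104-124849800 on the plus strand. Slc30a1 (ENSMUSG00000037434) lies at chr1:191906767-191913247 on the plus strand, and Slc39a14 (ENSMUSG00000022094) at chr14:70303469-70351425 on the minus strand. RefSeq promoters (GRCm38.p6) were found for 4 of the 5 genes: Mt1, Mt2, Mtf1 and Slc30a1. The 3 upstream sequences that held a core of the metal response element are shown, because this element is the one through which MTF-1 reads zinc. Capitals mark the core, TGCACNC or TGCGCNC on either strand. The Mt1 stretch is chr8:94178839-94179081, the Mt2 stretch chr8:94172368-94172617 and the Slc30a1 stretch chr1:191906531-191906766, all read 5' to 3' on the plus strand and ending before the gene's start.
Mt1: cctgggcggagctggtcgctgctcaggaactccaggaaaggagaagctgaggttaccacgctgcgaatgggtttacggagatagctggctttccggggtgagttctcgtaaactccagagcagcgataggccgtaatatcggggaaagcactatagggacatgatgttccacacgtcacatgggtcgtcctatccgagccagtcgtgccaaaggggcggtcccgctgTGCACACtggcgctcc
Mt2: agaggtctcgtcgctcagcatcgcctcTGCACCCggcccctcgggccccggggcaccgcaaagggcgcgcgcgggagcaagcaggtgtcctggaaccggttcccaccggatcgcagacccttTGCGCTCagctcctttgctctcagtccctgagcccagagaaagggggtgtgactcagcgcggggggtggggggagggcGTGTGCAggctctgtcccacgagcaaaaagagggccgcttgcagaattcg
Slc30a1: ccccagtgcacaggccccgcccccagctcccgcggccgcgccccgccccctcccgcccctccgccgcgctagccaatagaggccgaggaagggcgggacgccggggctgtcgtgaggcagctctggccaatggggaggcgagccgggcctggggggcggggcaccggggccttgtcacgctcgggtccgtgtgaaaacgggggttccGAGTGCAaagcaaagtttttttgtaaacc

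In the 250 bases before the RefSeq start, Mt2 had 3 cores, Mt1 had 1, Slc30a1 had 1 and Mtf1 had 0. At least 1 core was present in 21.4% of the 32851 promoters in the table, and at least 3 in 1.26%. Further cores lay just after the RefSeq start. The 3' tags do not show where transcription begins, so whether these cores are transcribed is not known here. Mt1 had 2 of them within 30 bases, in the stretch chr8:94179089-94179117, and Mt2 had 1, in chr8:94172618-94172639. The Mt2 stretch follows the RefSeq start but lies before the gene position given above, which begins at chr8:94172664.
Mt1 after its start: tcTGCACTCcgcccgaaaagTGCGCTCgg
Mt2 after its start: ggtcGTGCGCAggcccaggggc

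With 50 bases after the start included, Mt2 held 4 cores, a number reached by 0.517% of promoters, and Mt1 held 3, reached by 1.97%. Slc30a1 held 2, reached by 7.11%. The core of the antioxidant response element (TGACNNNGC or TGAGNNNGC on either strand) was in 23.0% of the 250-base promoters. In these 250 bases it occurred 2 times before Slc30a1, once before Mt2 and once before Mtf1, and not before Mt1. The bases after the RefSeq start were not searched for it, so its absence from Mt1 holds for that stretch only. These are matches of letters, and binding was not measured in these libraries.

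The libraries held 2791339 to 6328533 counts. Levels below are counts-per-million scaled by the TMM factors of edgeR (CPM), over n = 4 libraries of wild type, n = 3 of the Raptor knockout and n = 4 of the double knockout. The 8 myofibre markers summed to between 82399 and 105288 CPM in every library, which is the labelled tissue. Rptor, the targeted gene, stood at 9.83 ± 0.946 CPM (SD) in wild type, and at 4.57 ± 0.630 and 4.83 ± 0.566 CPM in the Raptor and double knockouts. Mtor stood at 20.8 ± 5.95, 20.6 ± 2.24 and 35.9 ± 3.36 CPM. The sources used here do not say where the floxed part of Mtor lies relative to its 3' end, and this count therefore does not check the label. Xist, transcribed from the inactive X chromosome, separated 4 libraries with 95.6 to 208 CPM (double-knockout replicates 1, 2 and 3, and replicate 3 of wild type) from the other 7, with 0 to 0.291 CPM. Double-knockout replicates 3 and 4 were in a smaller sequencing run than the other 9 libraries. Since the labels do not say that each library is a separate animal, the tests measure only the spread between these libraries. In bulk muscle, fewer cells of a type and less RNA per cell cannot be told apart.

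Against wild type, Mt1 and Mt2 rose 5.60-fold and 6.66-fold in the double knockout, while Mtf1, Slc30a1 and Slc39a14 stood at 0.856, 1.26 and 1.28 times the wild-type level. All 5 genes passed the filter on low counts. The 2 metallothioneins were the members called higher at an adjusted p under 0.05 in edgeR's quasi-likelihood fit, and 0 of 5 were lower. Over all 10505 genes tested, 26.7% were called in this comparison and 13.0% were called higher. For the same 2 members all double-knockout libraries lay above all wild-type libraries, beside 13.1% of all genes. Against the Raptor knockout, 0 of 5 members were called by edgeR, beside 0.0286% of all genes tested. At an unadjusted p under 0.05 there were 2 of 5, beside 9.49% of all genes, and DESeq2 and limma called 0 of 5 as well. In the same comparison all 4 double-knockout libraries lay above all 3 Raptor-knockout libraries for Mt1 and for Mt2, 2 of the 5 members, beside 5.18% of all genes higher without overlap. In the Raptor knockout against wild type, 0 of 5 were called by edgeR, 0 of 5 had an unadjusted p under 0.05 and 0 of 5 were called by DESeq2 or limma, beside 18.2% of all genes called and 31.7% with an unadjusted p under 0.05. The libraries of these groups overlapped for all 5, beside 27.3% of all genes without overlap; for Mt2 the overlap rests on wild-type replicate 3, at 76.8 CPM, since the other 3 wild types were at 39.2 CPM or less and the lowest Raptor knockout at 44.1 CPM. Because the members were chosen with these comparisons known, nothing is read from these counts.

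Mt1 stood at 12.9, 16.8, 59.5 and 55.9 CPM in wild-type replicates 1 to 4, at 57.9, 47.9 and 52.8 CPM in the Raptor knockouts and at 212, 336, 124 and 155 CPM in the double knockouts. The 4 double-knockout libraries were above each of the other 7, and the lowest of them, replicate 3, was 124 CPM against a highest of 59.5 CPM elsewhere. The wild-type libraries fell into a low pair (replicates 1 and 2) and a pair at the level of the Raptor knockout (replicates 3 and 4). Group means were 36.3 ± 24.9, 52.9 ± 5.01 and 207 ± 93.4 CPM. The log2 fold change was 2.48 ± 0.53 (SE) for the double knockout against wild type, 1.97 ± 0.57 against the Raptor knockout and 0.52 ± 0.55 for the Raptor knockout against wild type. The coefficient of variation of the wild-type libraries was 68.5%, that of the Raptor knockouts 9.48% and that of the double knockouts 45.2%.

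Mt2 followed the same order. Its levels were 11.3, 6.79, 76.8 and 39.2 CPM in wild type, 81.8, 44.1 and 61.9 CPM in the Raptor knockout and 271, 390, 127 and 134 CPM in the double knockout. All double-knockout libraries again lay above the other 7, with 127 CPM as their lowest and 81.8 CPM as the highest of the rest, and wild-type replicates 1 and 2 were again the lowest. Group means were 33.5 ± 32.2, 62.6 ± 18.8 and 230.2 ± 125 CPM. The log2 fold changes were 2.73 ± 0.73 (SE), 1.88 ± 0.79 and 0.86 ± 0.76 in the same order of comparisons. The smallest count behind these values was 19, in wild-type replicate 2, with an exact 95% Poisson interval of 11.4 to 29.7 counts that covers counting error only. With a single library left out the double-knockout value against wild type ran from 2.36 to 3.53, and without wild-type replicate 3 it was 3.53. The Raptor-knockout value of Mt2 against wild type was 1.63 without that replicate.

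**Figure D1:**
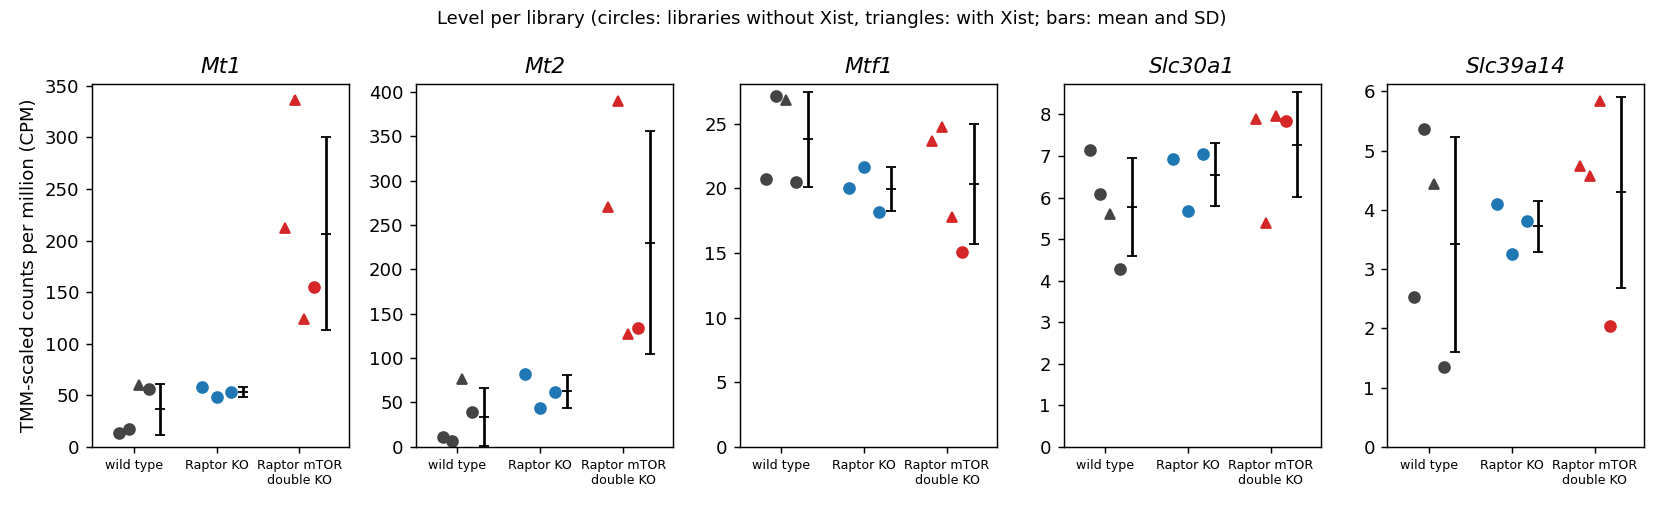
Level of each of the 5 genes in every library, in TMM-scaled CPM on a linear axis from 0, by genotype; circles are libraries without Xist, triangles libraries with Xist, and bars the group mean and SD. The 4 double-knockout libraries sit above the other 7 for Mt1 and Mt2, and the genotypes overlap for Mtf1, Slc30a1 and Slc39a14.

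The metallothionein transcripts moved together from library to library. Over the 11 libraries, Pearson's r between Mt1 and Mt2 on the log2 CPM scale was 0.97, and it was 0.93 after the group means were taken out; the libraries share depth and genotype, so this is a description. Mt2 counts per Mt1 count were 0.875, 0.404, 1.29 and 0.702 in wild type, 1.41, 0.921 and 1.17 in the Raptor knockout and 1.28, 1.16, 1.02 and 0.861 in the double knockout. The ratio was lowest in wild-type replicate 2 and highest in Raptor-knockout replicate 1, and the 3 genotypes overlapped. None of the other pairs among the 5 genes had an r above 0.43 over the 11 libraries; after the group means were taken out the highest of these was 0.67, for Mtf1 and Slc39a14.

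**Figure D2:**
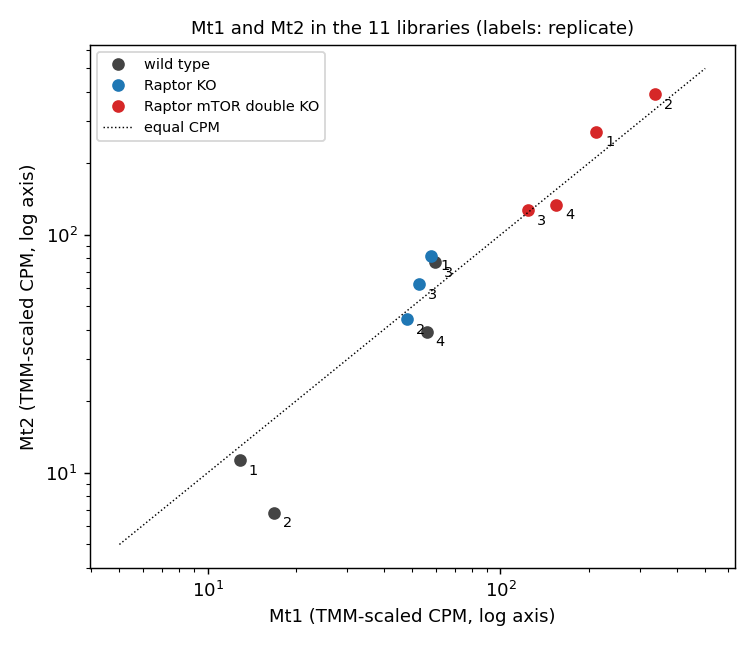
Mt2 against Mt1 in the 11 libraries, both in TMM-scaled CPM on log axes, with replicate numbers beside the points and a dotted line of equal CPM. The points run along the line from wild-type replicates 1 and 2 (12.9 and 16.8 CPM of Mt1) to double-knockout replicate 2 (336 CPM of Mt1).

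Mtf1, the sensor upstream of both metallothioneins, overlapped across genotypes. It stood at 20.7, 27.2, 26.8 and 20.5 CPM in wild type, 20.0, 21.7 and 18.2 CPM in the Raptor knockout and 23.7, 24.8, 17.8 and 15.1 CPM in the double knockout. The 3 groups overlapped, and the lowest values of all were the double-knockout replicates 3 and 4 of the smaller run. The log2 fold change was -0.22 ± 0.18 (SE) for the double knockout against wild type, 0.03 ± 0.20 against the Raptor knockout and -0.25 ± 0.20 for the Raptor knockout against wild type. Without the smaller run the first of these was 0.03. The 3' end of Mtf1 overlaps 1110065P20Rik on the other strand (chr4:124849080-124851196), which had 43 to 123 counts beside 52 to 163 for Mtf1. Without the strand setting of the counting, reads of the overlap cannot be told apart.

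Slc30a1, the zinc exporter that MTF-1 is known to induce along with the metallothioneins, lay in a narrow range. Its levels were 7.13, 6.08, 5.59 and 4.28 CPM in wild type, 6.92, 5.69 and 7.04 CPM in the Raptor knockout and 7.90, 5.39, 7.95 and 7.85 CPM in the double knockout. In the double knockout 3 of 4 libraries were above every other library and replicate 2, the library with the most Mt1 and Mt2, was below every other library except wild-type replicate 4. The log2 fold changes were 0.33 ± 0.23 (SE), 0.15 ± 0.25 and 0.19 ± 0.25 in the same order. Over the 11 libraries, Slc30a1 had an r of 0.13 with Mt1 and 0.19 with Mt2, and after the group means were taken out the direction turned, to -0.74 and -0.52. These values rest on 17 to 34 counts per library.

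Slc39a14, the importer, was the lowest of the 5 genes in counts, at 6 to 27 per library. It stood at 2.53, 5.36, 4.44 and 1.35 CPM in wild type, 4.10, 3.25 and 3.82 CPM in the Raptor knockout and 4.74, 4.58, 5.83 and 2.03 CPM in the double knockout. The lowest count, 6 in wild-type replicate 4, has an exact 95% Poisson interval of 2.20 to 13.1 counts. The groups overlapped, and the log2 fold changes were 0.36 ± 0.39 (SE), 0.21 ± 0.42 and 0.15 ± 0.42.

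Levels of different genes can be set side by side in TPM, transcripts-per-million, which divides by transcript length; 3' tags do not multiply with length, so the order depends on that division. In wild type the TPM means were 72.6 ± 68.9 (SD) for Mt2, 64.96 ± 45.4 for Mt1, 3.50 ± 0.411 for Mtf1, 0.957 ± 0.225 for Slc30a1 and 0.817 ± 0.386 for Slc39a14. Mt1 and Mt2 did not differ beyond their spread, and neither did Slc30a1 and Slc39a14 in wild type. Mtf1 lay between these pairs without overlap in all 3 genotypes. In the double knockout Mt2 was at 541 ± 280 and Mt1 at 409 ± 176 TPM, while Mtf1 was at 3.08 ± 0.647, Slc30a1 at 1.34 ± 0.274 and Slc39a14 at 1.02 ± 0.578 TPM.

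The other genes of zinc storage and transport gave 1 call of 14 tested in each comparison with wild type, beside 26.7% of all genes called in the double knockout and 18.2% in the Raptor knockout. Of 24 such genes, complete by family name, these 14 passed the filter: 6 of 9 SLC30 exporters, 8 of 13 SLC39 importers and 0 of the 2 remaining metallothioneins. Mt3, the metallothionein best known from brain, was at 0 to 1.45 CPM, and Mt4, known from squamous epithelium, at 0 to 0.271 CPM. Slc30a8, Slc30a10 and Slc39a5 had 0 counts in all 11 libraries, which allows up to 3 counts per library, or 0.474 to 1.07 counts-per-million of the library total. Slc30a9, a transporter that carries zinc out of mitochondria, was the gene called. It stood at 42.8, 37.5, 37.7 and 39.0 CPM in wild type, 26.2, 25.4 and 21.1 CPM in the Raptor knockout and 27.8, 21.5, 19.3 and 20.3 CPM in the double knockout. Every knockout library of either kind was below every wild-type library. Its log2 fold change was -0.82 ± 0.15 (SE; edgeR adjusted p = 0.000814) in the double knockout and -0.69 ± 0.16 (edgeR adjusted p = 0.00774) in the Raptor knockout, both against the same wild-type libraries. The Raptor-knockout call was lost without Raptor-knockout replicate 3 (-0.61). Between the knockouts the difference was -0.13 ± 0.17 (edgeR adjusted p = 0.874).

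The other 13 tested transporters were not called by edgeR in any of the 3 comparisons. Slc30a9 included, 3 of 14 had an unadjusted p under 0.05 in the double knockout against wild type, 1 against the Raptor knockout and 2 between Raptor knockout and wild type, beside 37.9%, 9.49% and 31.7% of all genes; DESeq2 called 1, 0 and 1, and limma 1, 0 and 0. The largest double-knockout values against wild type were -1.27 ± 0.71 (SE) for Slc30a2, a gene at 0.164 to 4.65 CPM, and 0.76 ± 0.34 for Slc39a2. Slc30a4 was at -0.54 ± 0.20 and the plasma membrane importer Slc39a1 at -0.27 ± 0.14, and for both of these all double-knockout libraries were below all wild-type libraries, as for Slc30a9, which makes 3 of 14 beside 13.6% of all genes. The 6 exporters had a median log2 fold change of -0.35 in the double knockout against wild type and the 8 importers 0.22, beside 0.02 over all genes tested. Against the Raptor knockout the medians were -0.13 and 0.03, beside 0.01. In both double-knockout comparisons the fold changes of Mt1 and Mt2 were larger in size than those of all 14 other tested zinc genes.

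**Figure D3:**
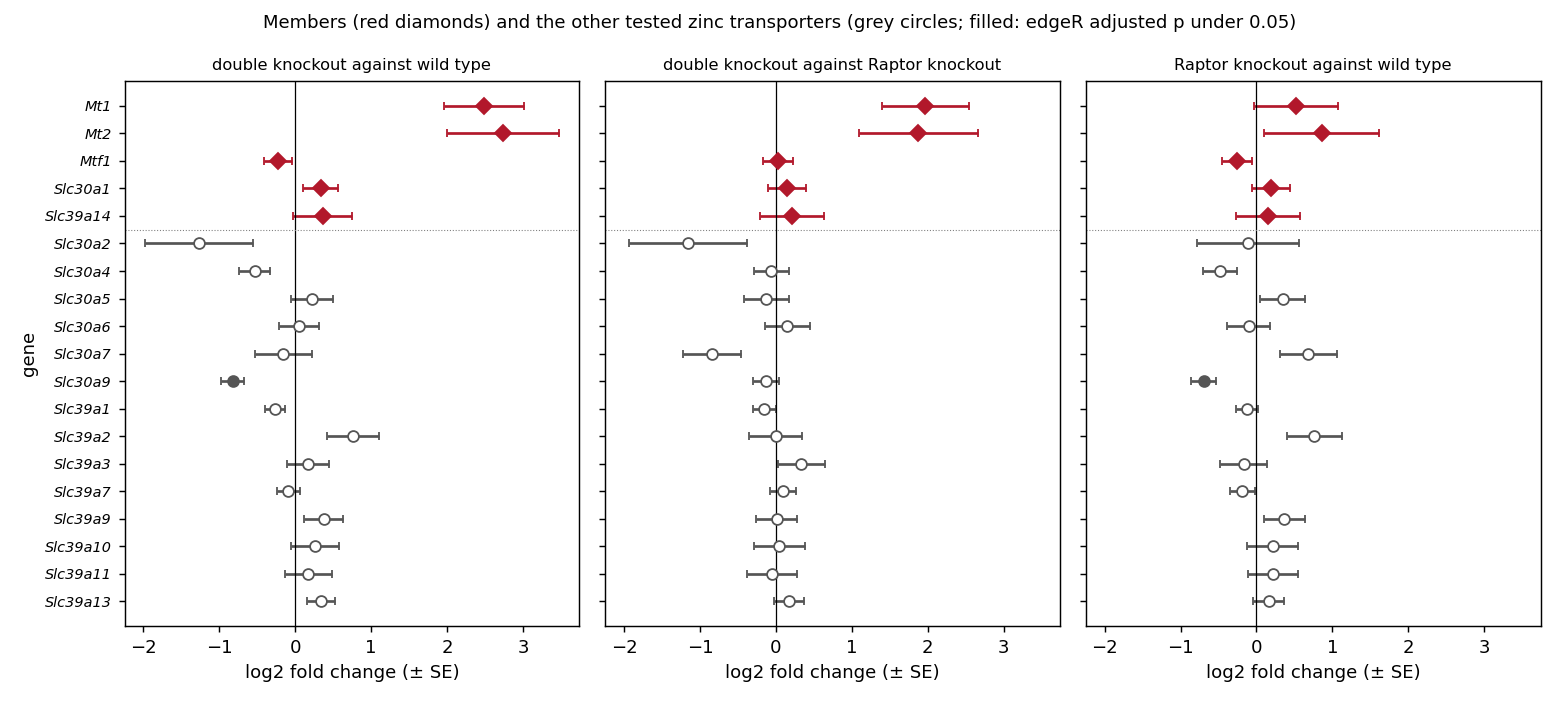
Log2 fold change and SE of the 5 members (red diamonds) and the 14 other tested zinc transporters (grey circles, filled where the edgeR adjusted p was under 0.05) in the 3 comparisons. Mt1 and Mt2 stand apart to the right in both double-knockout panels, at 1.88 to 2.73, and Slc30a9 is the filled circle, at -0.82 and -0.69.

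Genes with the library pattern most like each member were ranked by Pearson's r of log2 CPM over the 11 libraries, among 6336 genes with a mean log2 CPM of at least 3. For Mt1 they were the ribosomal protein gene Rps3a1 (r = 0.98), the antiproliferative early-response gene Btg2 (0.98), Mt2 (0.97) and the ribosomal protein gene Rpl8 (0.96). For Mt2 they were the AP-1 subunit gene Fosl2 (0.97), Rps3a1 (0.97), Btg2 (0.97) and the ATP-citrate lyase gene Acly (0.97). Like Mt1 and Mt2, Btg2 was highest in the 4 double knockouts and lowest in wild-type replicates 1 and 2: 8.51, 7.87, 24.0 and 15.6 CPM in wild type, 18.7, 16.2 and 22.0 CPM in the Raptor knockout and 60.4, 74.6, 41.3 and 43.0 CPM in the double knockout. After the group means were taken out, the r of Btg2 was 0.93 with Mt1 and 0.97 with Mt2. For Mtf1 the nearest were Mknk1 (0.87) and Tacc2 (0.85), for Slc30a1 Myo18b (0.91) and Cnot1 (0.91), and for Slc39a14 Dnajb4 (0.91) and Lsm8 (0.86). None of the 4 genes nearest to Mtf1, Slc30a1 or Slc39a14 was a metallothionein.

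Xist and the sequencing run were spread unevenly over the genotypes, and the metallothionein values shifted with how they were handled. No Raptor-knockout library had Xist, and among the double knockouts only replicate 4 lacked it. In that comparison genotype and Xist can therefore hardly be told apart. Double-knockout replicate 4, the double-knockout library without Xist, had 155 CPM of Mt1 and 134 CPM of Mt2, above all 7 wild-type and Raptor-knockout libraries. Among the 7 libraries without Xist, the log2 fold change against wild type was 2.40 for Mt1 and 2.75 for Mt2; the lone double-knockout library is there assumed to vary like the other groups. Against the Raptor knockout these values were 1.56 and 1.10. With Xist as a covariate in the fit of all libraries, the values against wild type were 2.16 ± 0.53 (SE) for Mt1 and 2.25 ± 0.61 for Mt2. Against the Raptor knockout they were 1.37 ± 0.62 for Mt1 and 0.75 ± 0.72 for Mt2. In the Raptor knockout against wild type, Mt2 moved from 0.86 ± 0.76 (SE) to 1.64 ± 0.62 among the libraries without Xist and to 1.5 ± 0.65 with Xist as a covariate. In the larger run alone, with double-knockout replicates 1 and 2, they were 2.89 and 3.26 against wild type and 2.37 and 2.40 against the Raptor knockout. The 2 double-knockout libraries of the larger run, which both have Xist, had the highest Mt1 and Mt2 of all 11. Among the double knockouts, replicate 3 has Xist and is in the smaller run, and its 124 CPM of Mt1 was the lowest of the 4.

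**Figure D4:**
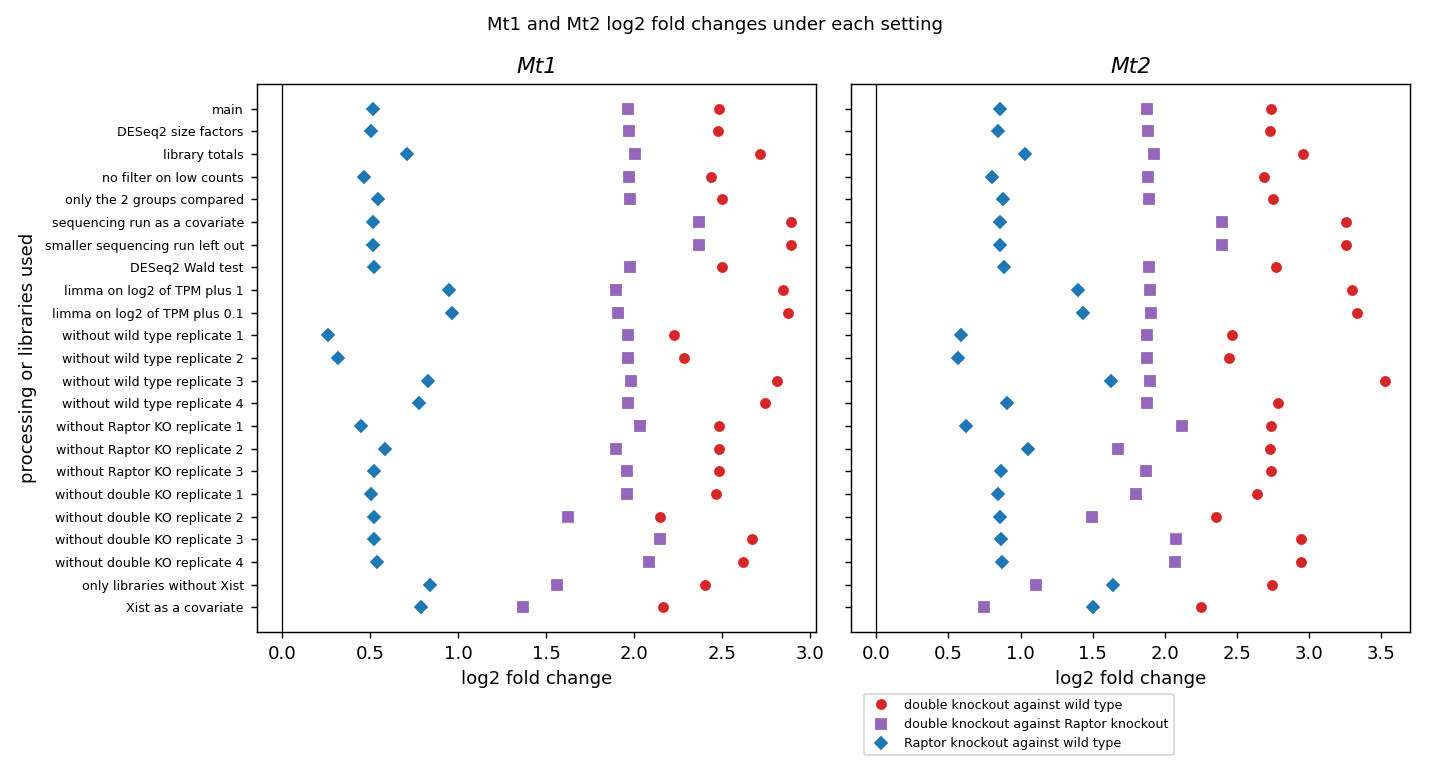
Log2 fold change of Mt1 and Mt2 in the 3 comparisons (colours) as first computed (top row) and under 22 other choices of processing or libraries. All values are above 0, and in the double knockout against the Raptor knockout they run from 1.37 to 2.37 for Mt1 and from 0.75 to 2.40 for Mt2.

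Other genes that MTF-1, metals or known inducers of the metallothioneins act on gave a mixed picture. Outside the 5 members, 2 of 5 tested MTF-1 targets were called higher in the double knockout against wild type: Csrp1, a LIM-domain protein gene, at a log2 fold change of 1.26 ± 0.23 (SE; edgeR adjusted p = 0.000613), and Selenoh, a selenoprotein gene, at 0.65 ± 0.20 (edgeR adjusted p = 0.0228). The same 2 genes were called higher in the Raptor knockout, at 1.21 ± 0.24 and 0.66 ± 0.21, and between the knockouts they stood at 0.05 ± 0.23 and -0.01 ± 0.21. The 2 Selenoh calls were lost without wild-type replicate 3 (0.61 and 0.59) or double-knockout replicate 1 (0.62 and 0.64), among other single libraries. The glutathione synthesis gene Gclc was called lower in the Raptor knockout without Raptor-knockout replicate 2 (-2.08) or wild-type replicate 4 (-1.51), and stood at -1.20 ± 0.51 with all libraries. The remaining tested targets, Ndrg1 and Slc39a10, stood at 0.17 ± 0.23 and 0.26 ± 0.31 in the double knockout against wild type. Slc39a10 is also counted among the other zinc transporters. The direction in which MTF-1 acts on each target was not used. Background shares were 13.0% higher in the double knockout and 8.73% higher in the Raptor knockout. Of 11 copper genes tested, Sod1, the copper-zinc superoxide dismutase, was the 1 called higher in both (0.59 ± 0.14 and 0.53 ± 0.15); its Raptor-knockout call was lost without wild-type replicate 3 (0.44) or Raptor-knockout replicates 1 or 3 (0.51 each). No copper gene was called lower with all libraries, and 2 were in the double knockout without wild-type replicate 4: the copper chaperone gene Cox17 (-0.44) and Commd1 (-0.45). Unlike Mt1 and Mt2, whose double-knockout libraries lay above the Raptor-knockout libraries, Csrp1, Selenoh and Sod1 overlapped between the knockouts; a difference of differences was not tested.

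Iron genes split by direction. Of 15 tested, 2 were called higher and 4 lower in the double knockout against wild type, beside 13.0% and 13.7% of all genes, and 2 higher and 3 lower in the Raptor knockout, beside 8.73% and 9.43%. With single libraries left out the double-knockout counts were 1 to 4 higher (4 without wild-type replicate 4, 1 without wild-type replicates 1, 2 or 3, double-knockout replicates 2 or 3 or Raptor-knockout replicate 1) and 3 to 5 lower. The Raptor-knockout count of 2 higher became 1 without wild-type replicates 1, 2 or 3, Raptor-knockout replicates 1 or 3 or double-knockout replicates 1 or 3. The lower genes included the iron exporter Slc40a1 (-2.70 ± 0.27, SE), the transferrin receptor Tfrc (-1.82 ± 0.22) and the metal importer Slc11a2 (-0.71 ± 0.20) in the double knockout. The 2 higher genes were the same in both knockouts: Hfe, a partner of the transferrin receptor, at 1.0 ± 0.17 in the double and 0.95 ± 0.18 in the Raptor knockout, and the ferritin light chain gene Ftl1 at 0.55 ± 0.19 and 0.65 ± 0.21. Hfe stood at 13.1 to 20.5 CPM in wild type and at 27.9 to 38.2 and 30.5 to 35.1 CPM in the Raptor and double knockouts, while Ftl1 overlapped with wild type in both. The ferritin heavy chain gene Fth1 was called lower in both knockouts, without overlap with wild type. It stood at -0.35 ± 0.12 (SE; edgeR adjusted p = 0.0354) in the double and -0.38 ± 0.13 (edgeR adjusted p = 0.0482) in the Raptor knockout. Slc39a14, which also carries iron, was at 0.36 ± 0.39.

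As a list, the glucocorticoid-responsive genes had another order over the genotypes than Mt1 and Mt2, though some of its genes shared theirs. Of 19 tested, 10 were called lower and 0 higher in the Raptor knockout against wild type, beside 9.43% and 8.73% of all genes, with a median log2 fold change of -1.09 beside 0.00 over all genes, whereas Mt1 and Mt2 stood at 0.52 and 0.86 there. Without Raptor-knockout replicate 1 or 3 the count was 6 lower. The 4 with the smallest adjusted p were the kinase gene Sgk1 (-1.59 ± 0.21, SE), the glutamine synthetase gene Glul (-2.02 ± 0.27), the glucocorticoid receptor co-chaperone gene Fkbp5 (-1.15 ± 0.22) and the transcription factor gene Klf15 (-1.79 ± 0.34). In the double knockout against wild type 4 were lower and 1 was higher, beside 13.7% and 13.0% of all genes; the latter became 4 without wild-type replicate 3, 2 without double-knockout replicate 4, and 0 when double-knockout replicate 2 or wild-type replicate 1 was left out. Against the Raptor knockout edgeR called 0 of 19 (1 without wild-type replicate 3 and 2 without wild-type replicate 4); 11 had an unadjusted p under 0.05, beside 9.49% of all genes, DESeq2 called 5 and limma called 0. In that comparison 11 of 19 were higher without overlap, beside 5.18% of all genes, and the median was 0.88, beside 0.01. Another 2 of the 19, Pdk4 among them, were lower without overlap, for which the share of all genes is not given here. Fkbp5 stood at 25.2 to 42.9 CPM in wild type, 12.1 to 17.0 CPM in the Raptor knockout and 24.7 to 37.2 CPM in the double knockout. Its Raptor-knockout libraries were below all others, and the double knockout overlapped with wild type. Foxo3 and Angptl4 had the order of Mt1 and Mt2 by group mean. In wild type, Raptor knockout and double knockout, Foxo3 averaged 18.4, 22.0 and 32.6 CPM and Angptl4 4.30, 4.82 and 8.97 CPM. Foxo1 and Per1 averaged 47.3, 35.2 and 119 CPM and 14.8, 8.80 and 30.5 CPM. For each of these genes the double knockout overlapped with wild type. Of 13 interleukin-6 and STAT3 response genes tested, 4 were called higher in the double knockout against wild type (Junb, Stat3, Socs3 and Timp1) and 0 lower, beside 13.0% and 13.7% of all genes; without wild-type replicate 4, 1 was lower. In the Raptor knockout 2 were higher (Timp1 and Junb) and 1 lower (Cebpd), beside 8.73% and 9.43% of all genes, the latter lost without Raptor-knockout replicate 2 or 3. Against the Raptor knockout edgeR called 0 of 13, with 3 at an unadjusted p under 0.05 beside 9.49% of all genes, 1 called by DESeq2 and 0 by limma. In that comparison 3 of 13 were higher without overlap, beside 5.18% of all genes, and the median log2 fold change was 0.35, beside 0.01. Against wild type the median was 0.80 in the double knockout, beside 0.02, and 0.45 in the Raptor knockout, beside 0.00. The part of any of these lists in the Mt1 and Mt2 levels was not tested.

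Markers of some other cell types moved with part of the pattern. In the double knockout against wild type 26.7% of all genes were called. Beside this, 0 of 6 tested endothelial, 0 of 4 Schwann cell and 0 of 5 erythrocyte markers were called there. Their median log2 fold changes were -0.24, 0.40 and 0.03, beside 0.02 over all genes. Of 3 satellite cell markers, 0 passed the filter. The 5 adipocyte markers summed to 67.7 to 238 CPM in wild type, and to 99.7 to 202 and 88.6 to 350 CPM in the Raptor and double knockouts. Double-knockout replicates 1 and 2, the libraries with the most Mt1, had the highest adipocyte sums (287 and 350 CPM), but double-knockout replicate 4 had 155 CPM of Mt1 at an adipocyte sum of 88.6 CPM. In the double knockout the 4 tested adipocyte markers had a median log2 fold change of 0.88 against wild type, beside 0.02 over all genes. Set against the Raptor knockout it was 0.79, beside 0.01. In these 2 comparisons 0 of the 4 were called by edgeR, beside 26.7% and 0.0286% of all genes. Higher without overlap were 0 of the 4 in both, beside 13.1% and 5.18% of all genes. The 12 macrophage markers summed to 84.4 to 152 CPM in wild type, and to 117 to 249 and 173 to 228 CPM in the Raptor and double knockouts. Of these, 6 were called higher in the double knockout (3 without double-knockout replicate 1 or 2, or without wild-type replicate 1) and 4 in the Raptor knockout against wild type (0 without Raptor-knockout replicate 1, 1 without Raptor-knockout replicate 3, and 2 without double-knockout replicate 1 or wild-type replicate 1, 2 or 3), beside 13.0% and 8.73% of all genes. Between the knockouts edgeR called 0 of the 12, beside 0.0286% of all genes, while DESeq2 called 1 and limma 0. Their median log2 fold change was 0.15, beside 0.01 over all genes. At an unadjusted p under 0.05 there was 1 of 12, beside 9.49% of all genes. That 1 gene was Cd163, a scavenger receptor of macrophages, at 4.37, 5.01, 8.22 and 5.86 CPM in wild type, 4.10, 5.96 and 3.52 CPM in the Raptor knockout and 13.6, 15.6, 12.7 and 9.88 CPM in the double knockout. Like Mt1 and Mt2, Cd163 was higher in each double knockout than in the other 7 libraries. Its log2 fold change was 1.11 ± 0.24 (SE; edgeR adjusted p = 0.00288) against wild type and 1.51 ± 0.28 (edgeR adjusted p = 0.0791) against the Raptor knockout, the latter called without Raptor-knockout replicate 2 or wild-type replicates 3 or 4. Raptor-knockout replicate 1 had the highest macrophage sum of all, 249 CPM, at 57.9 CPM of Mt1. The 8 fibro-adipogenic markers summed to 604 to 928, 965 to 1078 and 1074 to 1272 CPM, with 6 called higher in the double knockout and 4 in the Raptor knockout against wild type, beside the same 13.0% and 8.73%. The 5 neutrophil markers summed to 128 CPM in double-knockout replicate 3, the double knockout with the least Mt1, and to at most 15.9 CPM elsewhere. S100a8, S100a9, Retnlg and Csf3r were each highest in that library, at 55.9, 61.8, 8.75 and 1.33 CPM, and Ly6g was at 0 in every library. The part of these cells in the Mt1 and Mt2 levels was not tested.

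**Figure D5:**
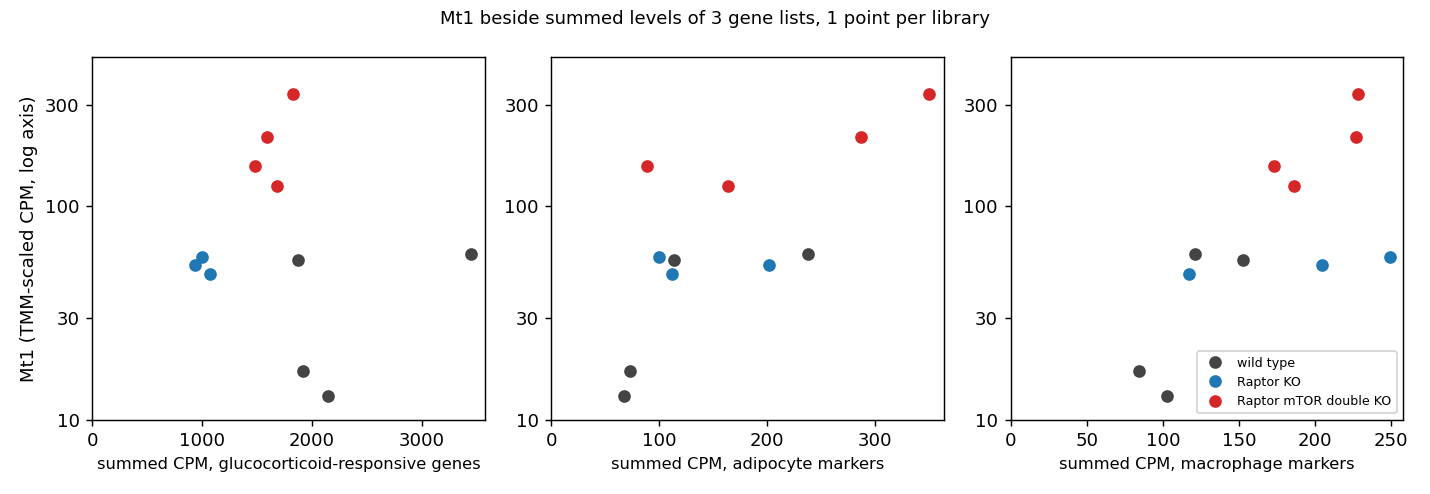
Mt1 (TMM-scaled CPM, log axis) beside the summed CPM of the glucocorticoid-responsive genes, the adipocyte markers and the macrophage markers, with 1 point per library. The adipocyte sums of the double knockouts overlap with those of both other genotypes. Their macrophage sums (173 to 228 CPM) overlap with the Raptor knockout (117 to 249 CPM) and lie above wild type (84.4 to 152 CPM). The glucocorticoid sums of the 3 genotypes do not overlap (934 to 1070 CPM in the Raptor knockout, 1486 to 1831 CPM in the double knockout and 1875 to 3446 CPM in wild type). These sums lean on the highest genes, and in wild type Fbxo32 averages 514 CPM, Klf9 472 CPM and Trim63 470 CPM. Double-knockout replicate 4 has 155 CPM of Mt1 at the lowest adipocyte sum of its group, 88.6 CPM.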

How the data were processed

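RNA of 11 gastrocnemius libraries was measured by QuantSeq 3' tags. Per the submitters' processing notes, reads were handled with RSEM 1.3.3, STAR 2.7.0 and fastp 0.20.0, and the build was GRCm38 (mm10). The deposited tables hold expected counts per gene, not normalized by the authors, from 2 sequencing runs, and a deposited table of TPM. The sources used here do not give the annotation release, filters or strand setting; gene positions come from GENCODE M21. Another 6 columns fitted no sample's labels and stayed out.

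The expected counts were made whole by rounding (2.25% were not whole, none of them in the 5 members, and a library total moved by at most 30.2). No 2 libraries were repeats of each other (lowest chi-square per degree of freedom 3.29). In R 4.3.3, edgeR 4.0.16 was used with filterByExpr by group, TMM and a robust quasi-likelihood fit of all 11 libraries in 3 groups (8 residual degrees of freedom, biological coefficient of variation 20.6%). It tested 10505 genes with 99.54% of the counts, two-sided, with Benjamini-Hochberg adjustment per contrast and calls at 0.05. A standard error is the log2 fold change divided by the square root of F. The fit was tested on simulated data.

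Alternatives were scaling by DESeq2 size factors or by library totals; no filter; only the 2 groups compared; the run as a covariate; the larger run alone; the Wald test of DESeq2 1.42.0; limma 3.58.1 on log2 of TPM plus 1 or 0.1 (for the 10342 genes whose TPM averaged 1 or more); and leaving out each library. Those using Xist were chosen after seeing the data. The members and all gene lists were chosen with earlier results of these data known. Genes named are the members, all SLC30, SLC39 and metallothionein genes, up to 4 per other pathway list with the smallest adjusted p, the 4 most like each member, and Rptor, Mtor and Xist. Cd163, Gclc, Cox17, Commd1, Ddit4, Pdk4, Per1, Foxo1, Foxo3, Angptl4, Ndrg1, Fth1, Fbxo32, Klf9, Trim63 and the neutrophil markers were added after their values were seen. Replicates are numbered in accession order and pair nothing. The proteins were not used here. RefSeq promoters were searched on both strands.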

Additional observations from a re-analysis of the deposited data

Results flagged for a closer look

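Among 38 sets of 4 libraries (19 zinc genes in the wild-type and double-knockout groups), a library lay far from the other 3 of its group in 2, and chance flags about 1 in 20. Slc30a1 stood at 5.39 CPM in double-knockout replicate 2, while the other 3 double knockouts lay between 7.85 and 7.95 CPM; this library rests on 20 counts of Slc30a1 and has the most Mt1 and Mt2. Slc30a5, an exporter of the secretory pathway, stood at 6.44 CPM in wild-type replicate 2, while the other 3 wild-type libraries lay between 3.61 and 3.95 CPM. The cause of either was not tested.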

How the results depend on the processing

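Under all 22 alternatives Mt1 and Mt2 kept positive log2 fold changes in each comparison: 2.15 to 2.89 and 2.25 to 3.53 in the double knockout against wild type, 1.37 to 2.37 and 0.75 to 2.40 against the Raptor knockout, and 0.26 to 0.97 and 0.56 to 1.64 in the Raptor knockout against wild type. In the double knockout against wild type, the call of Mt2 was lost under 6 of the 22 and that of Mt1 under 1. The 2 members called in the double knockout against wild type became 1 with no filter (Mt2 2.69), 1 with only the 2 groups compared (Mt2 2.75), 1 to 2 with a library left out, and 0 in the libraries without Xist, where 1 double knockout remained. The other zinc genes called there, 1 of 14, became 3 with library totals (Slc39a13, Slc30a9 and Slc39a2), 3 with no filter (Slc39a6, Slc30a9 and Slc39a4), 1 to 3 with a library left out (3 without wild-type replicate 3) and 0 in the libraries without Xist, where Slc30a9 was at -0.99 beside -0.82 with all libraries. In the Raptor knockout against wild type, 1 became 0 with library totals, 2 with no filter (Slc30a3 and Slc30a9), 0 with limma on log2 of TPM plus 1 or plus 0.1, and 0 to 1 with a library left out (0 without Raptor-knockout replicate 3). Slc39a6, Slc39a4 and Slc30a3 had not passed the filter and so were outside the 14. Their highest levels were 2.42, 1.59 and 1.47 CPM. Slc39a4 reached its highest level in double-knockout replicate 3 and was at 0 CPM in all wild-type and Raptor-knockout libraries. Library totals moved the median log2 fold change of all genes from 0.02 to 0.25 in the double knockout against wild type.

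Small values changed sign. Mtf1 in the double knockout against wild type was 0.0091 with library totals, 0.030 with the run as a covariate and 0.028 with the smaller run left out. Against the Raptor knockout Mtf1 was -0.17 and -0.22 with TPM plus 1 and plus 0.1, -0.39 without Xist libraries, -0.27 with Xist as a covariate, and -0.087 to 0.14 with a library left out (below 0 without Raptor-knockout replicate 3 and double-knockout replicates 1 and 2). In the Raptor knockout against wild type it was 0.023 and 0.027 with TPM plus 1 and plus 0.1. Slc39a14 was -0.52 and -0.85 (against wild type and Raptor knockout) without Xist libraries, -0.057 and -0.52 with Xist as a covariate, and -0.12 to 0.38 in the Raptor knockout against wild type with a library left out (below 0 without wild-type replicate 4). Slc39a14 has no value from TPM because its mean was under 1. Slc30a1 kept its sign throughout. The cause of these changes was not tested. No paired analysis was possible because the replicate numbers follow accession order and tie no libraries together.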

Other observations

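Wild-type replicates 1 and 2 had 12.9 and 16.8 CPM of Mt1, and replicates 3 and 4 had 59.5 and 55.9 CPM. The 19 glucocorticoid-responsive genes did not share 1 order over these libraries. In 7 of the 19 both replicates 3 and 4 were above replicates 1 and 2, as for Mt1: Ddit4 stood at 22.3, 8.58, 88.0 and 131 CPM in wild-type replicates 1 to 4 and Per1 at 11.3, 3.58, 22.2 and 22.3 CPM. In 8 of the 19 replicate 4 was the lowest wild type: Klf15 stood at 18.6, 23.6, 34.9 and 11.3 CPM and Pdk4 at 17.3, 9.30, 145 and 3.38 CPM. The remaining 4 did neither. These genes and this count were chosen after the values were seen. The sources used here do not give the time of day or the feeding state at which the muscles were taken.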
